A study of Caenorhabditis elegans with 2 samples.

Results

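Small nucleolar RNA (snoRNA) and small nuclear RNA (snRNA) genes are the short noncoding genes whose RNAs guide the modification of ribosomal RNA and carry out splicing. All 475 nuclear genes that the WBcel235 annotation of Caenorhabditis elegans gives the biotype snoRNA (346) or snRNA (129) were taken, of 46890 nuclear genes in all, and each was extended by 200 bp on both sides. The genes ran from 22 to 344 bp, with a median of 125 bp, and their windows had a median of 525 bp. Binding of SET-16 was profiled by ChIP-seq in whole L4 larvae, 48 hours old, of strain RW12223, in which CRISPR had inserted TY1, EGFP and 3xFLAG tags into set-16 on chromosome III (set-16::TY1::EGFP::3xFLAG). The larvae had been synchronised by bleaching and L1 starvation, chromatin was sheared by sonication, and the precipitation was through the GFP tag. There were 2 biological replicates of 1 group, so no condition was compared, and the control experiment that the labels name was not analysed here. Because whole animals were used, binding in different cell types cannot be told apart, and every animal carried the tagged allele.

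SET-16 belongs to the family of MLL3 and MLL4, mammalian enzymes that methylate lysine 4 of histone H3. Box C/D snoRNAs guide 2′-O-methylation and box H/ACA snoRNAs guide pseudouridylation, mostly of ribosomal RNA. Many snoRNAs lie in introns and can be processed from the messenger RNA precursor of the host gene, and in worms many also have promoters of their own. U1, U2, U4, U5 and U6 snRNAs form the spliceosome, SL1 and SL2 RNAs donate the spliced leader in trans-splicing, and SmY RNAs are nematode snRNAs associated with trans-splicing. Most snRNA genes are transcribed by RNA polymerase II and U6 by RNA polymerase III, in both cases from a proximal sequence element upstream of the gene. Transfer RNA genes, and some worm snoRNA genes, carry the A box and B box of a different type of polymerase III promoter.

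A gene was counted as occupied where the summit of a peak in the authors' conservative list, made from both libraries together, fell in its window. Of the 475 genes, 73 were occupied (15.4%, exact 95% binomial interval 12.2 to 18.9), against 2.87% of 190992 genome windows of 525 bp. The genes and their summits are not independent, since the 73 genes rested on 70 distinct summits, and the intervals cover counting error only. The 2 genes of highest signal were a snoRNA and a U1 snRNA. W03C9.9, an intergenic box C/D type snoRNA gene at chrII:11960898-11960959 on the + strand, had a signal of 2723 in the conservative list, 1768 in replicate 1 and 956 in replicate 2. sup-6, a U1 gene in an intron of F58G1.7 known for mutations that suppress splice site defects, had 2416, 1684 and 740 in the same order. These were the 14th and 20th of 5795 conservative peaks. The RNA of W03C9.9 is printed whole below with the letters of box C (TGATGA) and box D (CTGA) in capitals, because both check its label, and the first 40 bases of sup-6 (chrII:12944928-12944967, - strand) with the letters that pair with the 5′ splice site in capitals. All sequences are RefSeq letters of WBcel235 (ce11), 5′ to 3′ on the strand of the gene.
W03C9.9: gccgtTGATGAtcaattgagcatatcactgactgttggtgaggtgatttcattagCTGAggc
sup-6: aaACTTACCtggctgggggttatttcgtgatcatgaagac

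The upstream DNA of some occupied genes carried 2 recognisable arrangements of letters, the first at 12 of the 73 genes and the second at 6. Of the others, 11 had part of the second arrangement alone and 44 had none of these letters. The letters were chosen after the upstream sequences of occupied genes had been read, so they describe these genes and were not tested. The proximal element was searched as GGAACC, 7 bases of any kind, TGTC, any base and G, within 150 bp upstream on the strand of the gene. It was found at 35 genes, of which 19 were snoRNA and 16 snRNA genes, and at 0.035% of the same regions of 19973 protein-coding genes (0.0401% on either strand). The sequences below are the 110 bases before the 5 occupied genes of highest signal with this element on chromosomes II to V and X, and before one gene without a summit, with the element in capitals. They lie at chrII:12944968-12945077 (-), chrII:2556799-2556908 (-), chrIII:10989569-10989678 (+), chrIII:11090900-11091009 (+), chrV:14028636-14028745 (-) and chrIV:12795474-12795583 (+). sup-6 and T08G5.11 are U1 genes, K02F6.11 a snoRNA gene, W05B2.8 a U6 gene and sls-2.15 an SL2 gene, so the same letters stand before RNAs of different function. The summit was not at the printed element at K02F6.11 and sls-2.15, where it lay past the gene, or at T08G5.11, where it lay inside. F07C6.5, a U5 gene with no conservative summit, is shown because its window is the most GC-rich of the unoccupied genes with the element on the same chromosomes.
sup-6: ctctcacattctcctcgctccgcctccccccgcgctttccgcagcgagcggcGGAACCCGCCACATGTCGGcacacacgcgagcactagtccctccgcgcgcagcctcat
K02F6.11: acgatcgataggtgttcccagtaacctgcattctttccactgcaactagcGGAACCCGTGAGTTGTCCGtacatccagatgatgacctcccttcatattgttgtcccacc
W05B2.8: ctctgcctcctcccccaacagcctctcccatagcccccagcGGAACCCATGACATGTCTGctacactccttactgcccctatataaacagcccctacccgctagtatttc
sls-2.15: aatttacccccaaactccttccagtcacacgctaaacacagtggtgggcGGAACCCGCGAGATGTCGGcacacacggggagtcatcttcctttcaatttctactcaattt
T08G5.11: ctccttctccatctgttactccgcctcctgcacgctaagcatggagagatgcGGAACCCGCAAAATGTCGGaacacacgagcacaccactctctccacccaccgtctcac
F07C6.5: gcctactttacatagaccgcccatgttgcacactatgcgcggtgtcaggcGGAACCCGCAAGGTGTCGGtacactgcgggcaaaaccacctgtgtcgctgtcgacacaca

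The other arrangement was an A box, searched as TGG, 3 bases of any kind, AG, 1 or 2 bases of any kind and GG, followed after 10 to 70 bases by a B box, searched as GTTCNANNC. This pair stood upstream of 17 genes, all of them snoRNA genes, on the strand of the gene, and at 0.02% of protein-coding upstream regions (0.035% on either strand), and the same pair lies within 37.9% of tRNA genes. No gene had both the pair and the proximal element. The 5 occupied genes of highest signal with the pair and one gene without a conservative summit are shown over the 110 bases before the gene, with both boxes in capitals. They lie at chrII:11960788-11960897 (+), chrV:15191094-15191203 (-), chrV:12303598-12303707 (+), chrV:19643188-19643297 (-), chrII:4942520-4942629 (-) and chrV:11782882-11782991 (+). Both sets were chosen by the same rule, so F55A11.10 has the most GC-rich window of the unoccupied genes with the pair on those chromosomes.
W03C9.9: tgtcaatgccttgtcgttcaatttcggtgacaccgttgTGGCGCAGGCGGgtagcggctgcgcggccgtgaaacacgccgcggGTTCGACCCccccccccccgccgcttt
Y75B12B.12: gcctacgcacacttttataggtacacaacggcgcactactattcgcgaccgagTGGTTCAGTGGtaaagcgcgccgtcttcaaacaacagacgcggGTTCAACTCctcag
C51F7.3: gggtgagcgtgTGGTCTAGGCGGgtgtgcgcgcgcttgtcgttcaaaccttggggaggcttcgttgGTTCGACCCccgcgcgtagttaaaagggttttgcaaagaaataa
Y43F8C.22: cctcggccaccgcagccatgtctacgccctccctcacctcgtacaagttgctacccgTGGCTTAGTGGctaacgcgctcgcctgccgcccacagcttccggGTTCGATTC
ZK546.18: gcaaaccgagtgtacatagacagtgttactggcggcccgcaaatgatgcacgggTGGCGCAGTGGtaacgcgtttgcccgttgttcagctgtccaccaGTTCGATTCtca
F55A11.10: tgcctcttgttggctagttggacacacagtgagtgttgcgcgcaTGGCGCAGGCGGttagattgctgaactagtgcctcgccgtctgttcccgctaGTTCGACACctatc

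Both biotypes had similar shares, with intervals that overlap. Conservative summits lay at 52 of 346 snoRNA genes (15%, interval 11.4 to 19.2) and at 21 of 129 snRNA genes (16.3%, interval 10.4 to 23.8). Among other short RNA genes extended in the same way, 105 of 612 tRNA genes (17.2%), 11 of 261 miRNA genes (4.21%), 20 of 15363 piRNA genes (0.13%) and 0 of 20 rRNA genes had a summit. Windows of the same length centred on the starts of protein-coding genes had one in 3.25%. Only 1 of the 475 windows overlapped a tRNA gene, that of sls-2.9. A summit lay in the gene start window of a protein-coding gene (1000 bp upstream to 200 bp downstream of the start) at 26 of the 73 and in a coding exon at 10. With both kinds left out, 41 occupied genes remained.

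**Figure D1:**
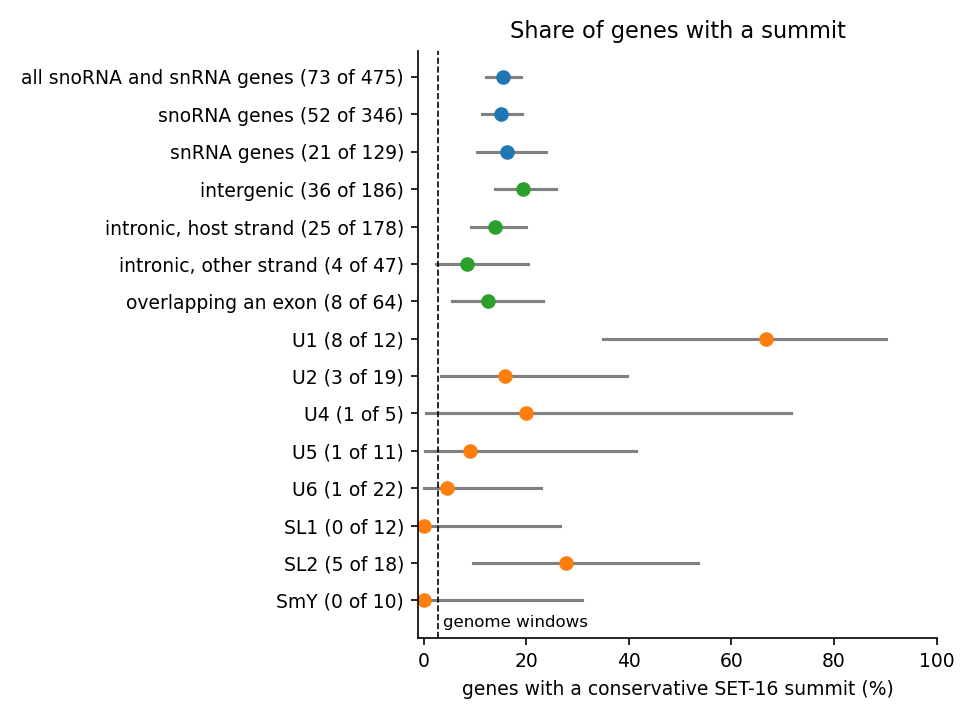
Share of genes with a conservative SET-16 summit in the gene or within 200 bp, in percent, by biotype (blue), location (green) and snRNA family (orange), with exact 95% binomial intervals as bars. The dashed line is the share of genome windows, 2.87%. U1 genes stand highest at 66.7%, and SL1 and SmY genes are at 0.

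Shares differed more between snRNA families than between biotypes, as the plot of shares shows. Families were assigned by letters of the RNA or by gene name, and 20 snRNA genes fitted none. Of these 20, 2 had a summit, and both shared it with a U1 gene. mir-1831 shared that of sup-39, and T27E4.22 that of T27E4.12. U1, which recognises the 5′ splice site, had a summit at 8 of 12 genes (66.7%, interval 34.9 to 90.1). Of all 12, with or without a conservative summit, 6 were in the replicate 1 list and 7 in the replicate 2 list. The conservative signals of the 8 U1 genes ran from 84.7 to 2416 with a median of 135, so sup-6 stood far above the rest. The next U1 gene, T08G5.11, had 279, with 133 in replicate 1 and 147 in replicate 2. sup-39, another U1 suppressor locus, had 214, with 95.5 and 120. F08H9.10 had 159, with 80.0 and 81.2. The summit lay inside the gene at 7 of the 8 U1 genes and upstream at sup-6 alone. Protein-coding gene start windows also held the summits of sup-39 (eif-2Bgamma), F08H9.10 (hsp-16.20), H27M09.6 (H27M09.5 and syp-4) and T27E4.12 (T27E4.1). The U1 genes are nearly alike in sequence (T08G5.11 was 99.4% identical to its closest relative), but none of the 12 had an exact copy of the whole gene. The 50 bp on both sides of the summit did have another exact genomic copy at the U1 genes T27E4.11 and F40G12.14, the U1 genes with the lowest signals of 85.4 and 84.7, and at the U2 gene F08G2.10. These 3 were called in neither replicate list.

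SL2 genes were occupied at 5 of 18 (27.8%, interval 9.69 to 53.5). Of all 18, 5 were in the replicate 1 list and 6 in the replicate 2 list. SL2 RNA supplies the leader for downstream genes of operons. The gene sls-2.4 had a conservative signal of 399, with 158 in replicate 1 and 241 in replicate 2. At sls-2.1 the values were 372, 94.3 and 293, and at sls-2.15 they were 361, 201.5 and 163. sls-2.2 reached 241 (58 and 183) and sls-2.9 reached 170 (52.2 and 119). Replicate 2 was the higher at all of these except sls-2.15, whose summit lay 135 bp downstream of the gene in a coding exon of its host W09D6.5. The summits of sls-2.4 and sls-2.1 also lay in the gene start windows of egg-5 and H41C03.3, and the window of sls-2.9 overlapped a tRNA gene. SL1 genes, by contrast, had no conservative summit at any of 12 genes, which allows a share of up to 26.5% by the exact interval. All 12 SL1 genes had an identical copy among the genes studied, and in worms SL1 genes belong to the tandem 5S rDNA repeat. The 3 SL1 genes with a summit in the ranked list (the list with no limit on reproducibility) had signals of 17.7 to 18.9, far below the conservative median. The sources used here do not say whether reads from such copies were kept, so an absence of binding and an absence of mapped reads cannot be told apart.

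The other spliceosomal families had few occupied genes. U2, which pairs with the branch point, had 3 of 19 (15.8%, interval 3.38 to 39.6), with signals of 107 at F08G2.11, 89.8 at F08G2.10 and 78.0 at C47F8.9. None of the 3 was in a thresholded list of a single replicate. U4 had 1 of 5, C52E4.8, with 239 in the conservative list, 81.9 in replicate 1 and 157 in replicate 2. Its summit, 58 bp upstream of the gene, also lay 337 bp upstream of the start of snr-4, which encodes a core Sm protein, so the summit belongs to both windows. U5 had 1 of 11, F32B5.9, with 90.9. U6 had 1 of 22 (4.55%, interval 0.115 to 22.8), W05B2.8 in an intron of the dynein heavy chain gene dhc-4, with 408, 200.6 and 211. It was identical to 13 other genes of the set in sequence, while the letters around its summit, 108 bp upstream, were unique in the genome. Of the U6 genes 17 had an identical copy. No SmY snRNA gene of 10 had a summit, but the annotation gives 2 further smy genes the biotype snoRNA, and 1 of them, smy-2, had a signal of 143. Genes with an identical copy, all of them snRNA genes, were occupied at 4 of 44 (9.09%) and other snRNA genes at 17 of 85 (20.0%).

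GC content differed between occupied and other genes. GC content was taken over 100 bp on either side of points 25 bp apart, and the highest value of the window was used. It had a median of 54.7% at occupied genes, 47.8% at the others and 42.3% in genome windows. Below 45%, 0 of 143 genes had a summit (upper limit 2.55%), beside 0.037% of genome windows. From 45 to 50% the genes had 5 of 134 (3.73%, interval 1.22 to 8.49) and the windows 0.692%. From 50 to 55% the genes had 32 of 136 (23.5%, interval 16.7 to 31.6) and the windows 9.21%. At 55% or more the genes had 36 of 62 (58.1%, interval 44.8 to 70.5) and the windows 53.5%. The intervals of the middle classes lay above the share of windows, and that of the most GC-rich class included it.

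**Figure D2:**
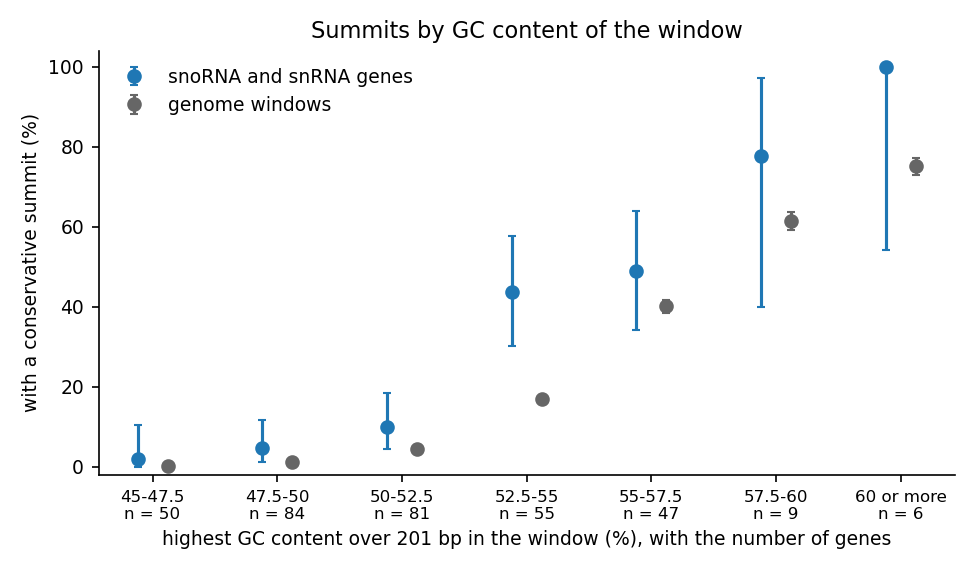
Share of snoRNA and snRNA genes (blue) and of genome windows of 525 bp (grey) with a conservative summit, in percent, by the highest GC content of any stretch with 100 bp on either side of a point in the window, with exact 95% binomial intervals. The number of genes is under each class, and the 143 genes under 45%, none with a summit, are not drawn. From 52.5 to 55% the genes stand at 43.6% and the windows at 17.1%.

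In finer classes, shown in the plot by GC content, the gap was widest from 52.5 to 55%, where 24 of 55 genes (43.6%, interval 30.3 to 57.7) and 17.1% of windows had a summit. From 55 to 57.5% the genes had 23 of 47 (48.9%, interval 34.1 to 63.9) and the windows 40%. From 57.5 to 60% the counts were 7 of 9 (77.8%, interval 40 to 97.2) and 61.5% of windows, and at 60% or more 6 of 6 (interval 54.1 to 100) and 75.1%. The genes thus stood above the windows in each finer class of 55% or more, with intervals that include the windows' share. Within the class of 55% or more, 26 of 37 snoRNA genes (70.3%, interval 53.0 to 84.1) and 10 of 25 snRNA genes (40%, interval 21.1 to 61.3) were occupied. The 12 SL1 genes, with a median highest GC content of 57.2%, belong mostly to that snRNA count. U1 genes had a median of 55.5%, and their share of 66.7% has an interval that includes the 53.5% of windows of 55% or more. U6 genes had a median of 42.3% and SmY snRNA genes of 44.3%, where few windows of any kind had a summit. The part of GC content in the differences between families was not tested.

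Occupied genes were richer in GC both upstream and within the gene. Their median GC content was 48.5% in the 200 bp upstream, 47.6% in the gene and 36.5% in the 200 bp downstream. At the other 402 genes the medians were 41.0%, 40.5% and 35.2%. The 45 genes whose highest summit lay upstream had 50.5%, 44.9% and 35.5%, which describes genes chosen by the place of the summit.

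Summits gathered just upstream of the genes. Of the 73 summits of highest signal per gene, 45 lay upstream, 18 inside the gene and 10 downstream. The upstream summits were a median of 49 bp from the gene start (quartiles 39 to 101 bp), and 26 of the 45 lay 25 to 75 bp away. Both replicates gave the same layout, with 47 upstream, 13 inside and 9 downstream in replicate 1 and 51, 17 and 9 in replicate 2. The bin from -50 to -26 bp held 17 genes in the conservative list, 16 in replicate 1 and 23 in replicate 2. Among the 41 genes whose summit lay outside coding exons and protein-coding gene start windows, 29 had it upstream, 8 inside and 4 downstream. At tRNA genes, whose promoter letters lie within the gene, 44 summits were upstream, 43 inside and 18 downstream.

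**Figure D3:**
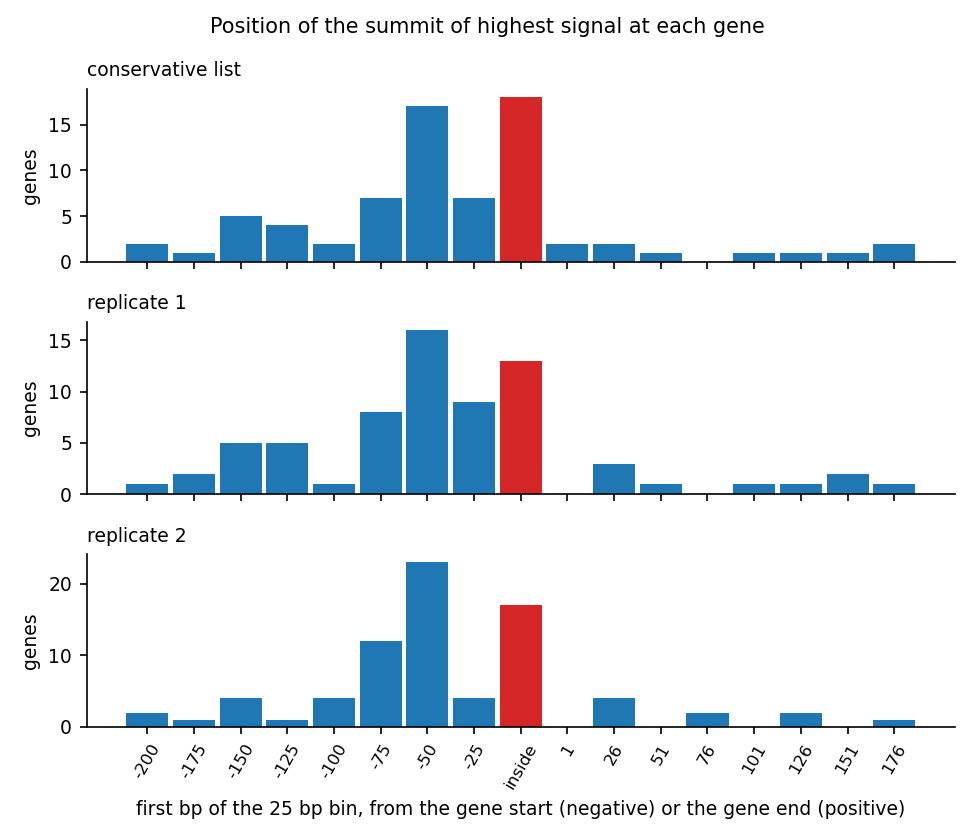
Number of genes by the position of their summit of highest signal in the conservative list (top), replicate 1 (middle) and replicate 2 (bottom), in bins of 25 bp. Negative positions count from the gene start and positive ones from the gene end, and the red bar holds summits inside the gene. The bin from -50 to -26 bp is the highest outside the gene in each list, with 17, 16 and 23 genes.

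The side of the summit was counted for each biotype, with no test of the difference. At snoRNA genes 36 of 52 summits lay upstream, 8 inside and 8 downstream. At snRNA genes 9 of 21 lay upstream, 10 inside and 2 downstream, and 7 of those 10 were U1 genes. Among the 7 genes of highest signal, the summit lay 47 bp upstream at W03C9.9, 40 bp upstream at sup-6, 179 bp upstream at W06H8.17, 101 bp upstream at ZK20.9, inside F07A11.15, 47 bp upstream at Y37E3.20 and 40 bp downstream of K02F6.11. The genes just inside the edge of the 200 bp flank were Y24D9A.10 with a summit at 200 bp (signal 577), F30A10.16 at 188 bp (207) and W06H8.17 at 179 bp (2074). Just outside were C07H6.10 with a summit at 210 bp (145), K11H12.12 at 241 bp (113) and Y111B2A.35 at 244 bp (103).

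Genes with the upstream letters were occupied more often than genes without, with no test made because the letters were chosen from these genes. The proximal element genes had a summit at 12 of 35 (34.3%, interval 19.1 to 52.2), and the genes with the A and B box pair at 6 of 17 (35.3%, interval 14.2 to 61.7). Genes with one of the boxes alone had 11 of 41 (26.8%, interval 14.2 to 42.9), with the summit upstream at all 11. On the opposite strand of the same upstream regions, the A box was found at 22 genes, the B box at 7 and the pair at 0. On the strand of the gene the counts were 38, 38 and 17. The A box form with 2 free bases before GG stood at 17 genes on each strand and within 0.817% of tRNA genes. The form with 1 free base stood at 24 genes, 15 on the opposite strand, and within 41.2% of tRNA genes. Genes with none of these letters had 44 of 382 (11.5%, interval 8.5 to 15.2), with 21 summits upstream, 15 inside and 8 downstream. The replicate lists gave 12 and 16 proximal element genes, and 6 and 10 genes with the pair, in replicate 1 and replicate 2. The count for the pair therefore depended on the list, and it was also 10 in the second list made from both libraries.

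**Figure D4:**
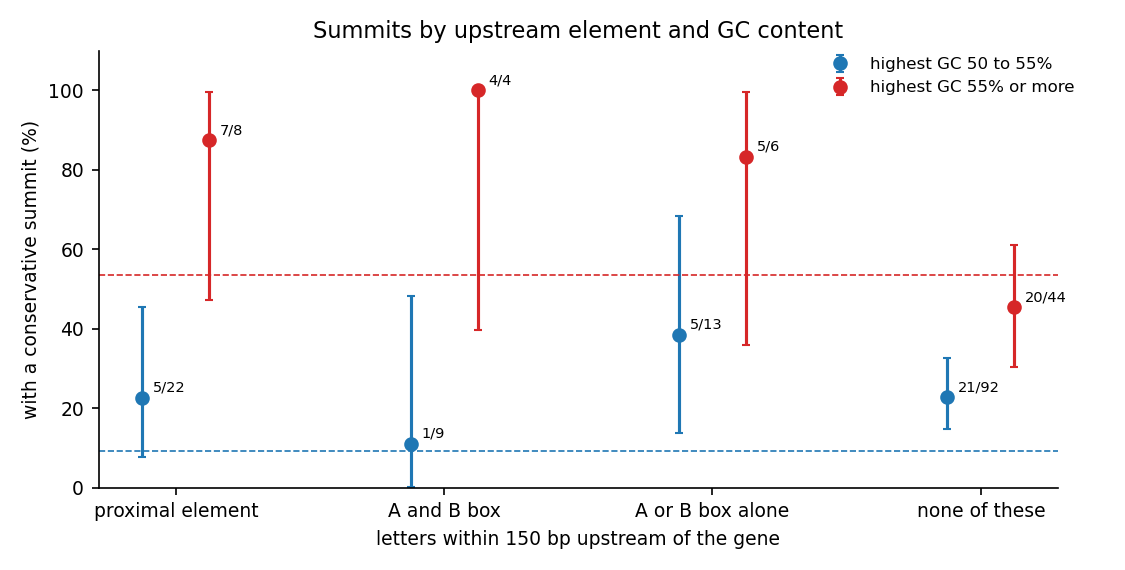
Share of genes with a conservative summit, in percent, by the letters found within 150 bp upstream, for genes with a highest GC content of 50 to 55% (blue) and of 55% or more (red), with exact 95% binomial intervals and the counts beside each point. Dashed lines are the shares of genome windows in the same GC classes, 9.21% and 53.5%. At 55% or more, 7 of 8 proximal element genes and 20 of 44 genes with none of these letters had a summit.

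These genes were also GC-rich, with a median highest GC content of 53.2% for the proximal element and 51.2% for the pair, beside 48.3% for genes with none of these letters. Within the class of 55% or more, 7 of 8 proximal element genes, 4 of 4 genes with the pair, 5 of 6 with one box alone and 20 of 44 with none were occupied. From 50 to 55% the counts were 5 of 22, 1 of 9, 5 of 13 and 21 of 92, so in that class the proximal element genes (22.7%) and the genes with none (22.8%) stood level. The plot by upstream letters shows both classes.

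The letters stood at a similar distance from most of the genes. The proximal element began at a median position of -61 from the gene start, within a range of -87 to -58, and at 27 of 35 genes within 5 bp of the median. On the opposite strand of the same regions it was found at 0 genes. The A box of the pair began at a median of -59, and at 12 of 17 genes within 5 bp of it. The summit lay within 50 bp of the middle of the proximal element at 8 of 12 occupied genes and within 50 bp of the middle of the pair at 4 of 6. It lay 8.5 bp downstream of the middle of the element at sup-6 and -2.0 bp from the middle of the pair at W03C9.9. The exceptions were K02F6.11 and sls-2.15, with the summit 261.5 and 298.5 bp downstream of the element and past the end of the gene, T08G5.11 and F08H9.10, with it inside the U1 gene, and ZK546.18 and Y75B12B.12 for the pair.

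The proximal element was spread over snRNA families. It stood upstream of 4 of 12 U1, 4 of 18 SL2, 2 of 5 U4, 3 of 11 U5 and 3 of 22 U6 genes, and of no SL1, U2 or SmY snRNA gene in this spelling. Among snoRNA genes with it, Y74C9A.6 had a conservative signal of 557, with 321 in replicate 1 and 242 in replicate 2. F25H2.15 had 338, with 143 and 192, and F47G4.9 had 330, with 183 and 141. F59C6.15 had 329, with 90.1 and 241, so the order of the replicates changed from gene to gene. F01D5.12 in an intron of F01D5.10 had 158, with 43.8 and 111. Of the genes with the pair, Y75B12B.12 had 422, with 177 in replicate 1 and 235.5 in replicate 2. C51F7.3, in an intron of the FERM domain gene frm-7, had 384, with 94.1 and 285, and shared this summit with its neighbour C51F7.4. Y43F8C.22 had 339, with 140 and 195, and ZK546.18 had 208, with 83.7 and 122. Every occupied gene with the pair except W03C9.9 was higher in replicate 2.

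Intronic and intergenic genes were both occupied above their backgrounds. Of 186 intergenic genes, 36 had a summit (19.4%, interval 13.9 to 25.8), beside 2.41% of genome windows centred in intergenic DNA. Of 178 genes within an intron on the strand of the host, 25 had one (14.0%, interval 9.3 to 20.0), beside 2.36% of windows centred in introns. The class is that of the gene, and at some of the 25 the summit itself lay in a coding exon. Y24D9A.10, sls-2.15 and F17C11.15 were among these. Intronic genes on the other strand had 4 of 47 (8.51%, interval 2.37 to 20.4), and genes overlapping an exon of another gene 8 of 64 (12.5%, interval 5.55 to 23.2), beside 4.02% of windows centred in exons. The intervals of all 4 locations overlap. In the GC class of 50 to 55%, 17 of 53 intergenic genes (32.1%, interval 19.9 to 46.3) and 10.2% of intergenic windows had a summit. For intronic genes the counts were 13 of 58 (22.4%, interval 12.5 to 35.3) and 8.32% of intron windows. At 55% or more the intergenic genes (48.6%) stood near intergenic windows (48.0%), and 12 of 18 intronic genes (66.7%, interval 41.0 to 86.7) stood beside 51.9% of intron windows. By upstream letters, 5 of 12 intronic genes with the proximal element (41.7%, interval 15.2 to 72.3) had a summit. The counts were 2 of 6 with the pair and 5 of 17 with one box alone. With no such letters they were 13 of 143 (9.09%, interval 4.93 to 15). The letters were chosen from occupied genes and GC content was not held fixed, so these counts are a description and were not tested.

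The introns that hold these genes differed from the other introns of the same hosts. Of 172 host introns with a snoRNA or snRNA gene, 25 held a conservative summit (14.5%, interval 9.63 to 20.7). Of 1219 other introns of these genes, 23 did (1.89%, interval 1.2 to 2.82). Introns with such a gene were longer, with a median of 464.5 bp beside 121 bp. Per length, they held 12.79 summits in 100 kb and the others 5.26, so the gap was narrower once length was counted. GC content was not held fixed here.

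Hosts with a summit at their intronic gene numbered 23 of 152. The strongest after F58G1.7, the host of sup-6, was pcyt-2.1, a phospholipid synthesis gene, whose snoRNA gene Y37E3.20 had 1451 in the conservative list, 931 in replicate 1 and 523 in replicate 2. W08G11.6, in W08G11.3, had 596, with 294 and 301. Y38F2AR.14, in Y38F2AR.12, had 306, with 149 and 165. C10C6.8, in the P-type ATPase gene catp-8, had 264, with 91.6 and 177. In each of these the summit was in the intron, 47 bp upstream of Y37E3.20, 48 bp upstream of W08G11.6, inside Y38F2AR.14 and 36 bp upstream of C10C6.8. Y24D9A.10, in the ribosomal protein gene rpl-7A, differed. Its conservative signal of 577 came from a summit 200 bp downstream in a coding exon, and the highest values in its window were 438 in replicate 1 and 16.5 in replicate 2, from a different summit.

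Hosts of the translation machinery, a classical home of snoRNAs, had shares whose intervals overlap those of other hosts. Genes within ribosomal protein hosts had a summit at 4 of 23 (17.4%, interval 4.95 to 38.8) and genes within other hosts at 21 of 155 (13.5%, interval 8.59 to 20.0). At all 4, the rpl-7A gene, both genes in rps-27A and F54E7.11 in rps-12, the summit fell in a coding exon. H06I04.9 and H06I04.8 in rps-27A had conservative signals of 148 and 25.7, and F54E7.11 had 119. The elongation factor host eef-1G held F17C11.15 with 160, also in a coding exon, and the histone H3.3 gene his-72 held Y49E10.36 with 9.22, the lowest signal of all 73. The hosts with the most genes had none occupied. These were nol-56, which encodes a box C/D snoRNP protein and holds 4 snoRNA genes, and mam-3, rpl-6, top-2 and unc-31 with 3 each.

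Shares by chromosome ran from 2.78 to 21.8%. Genes on chromosome II were occupied at 19 of 87 (21.8%, interval 13.7 to 32.0), on V at 18 of 95 (18.9%), on I at 16 of 90 (17.8%) and on III at 10 of 67 (14.9%). Chromosome IV had 9 of 100 (9.0%, interval 4.2 to 16.4) and X had 1 of 36 (2.78%, interval 0.0703 to 14.5). The shares of genome windows were 3.16% on II, 2.31% on V, 3.43% on I, 3.41% on III, 2.57% on IV and 2.65% on X, so the background of IV and X was not the lowest. The one X gene, T27A8.9, had a signal of 173, with 110 in replicate 1. On chromosome IV none of 41 snRNA genes had a summit. Of these 41, 14 had an identical copy and 7 had a highest GC content of 50% or more, and the part of either in the count was not tested.

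The signals of these genes stood above or level with those of all peaks, depending on the list. The conservative signal had a median of 214 over the 73 genes (range 9.22 to 2723, quartiles 148 to 361), and 170 over all 5795 conservative peaks. Of the 73, 48 lay above that peak median, and 6 were among the 100 peaks of highest signal. In replicate 1 the thresholded median was 95.5 at these genes and 99.6 over all peaks, while in replicate 2 it was 134 and 94.7. The conservative medians were 232 for snoRNA genes and 170 for snRNA genes, and 334 for the proximal element, 361 for the pair and 183 for genes with none of the letters. The median peak width was 336 bp at these genes and 437 bp over all conservative peaks, while the upper quartile was 444 bp in both.

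The genes of highest signal formed a group of 7, from W03C9.9 at 2723 down to K02F6.11 at 1072, well apart from W08G11.6 at 596. W06H8.17 had 2074, with 1338 in replicate 1 and 737 in replicate 2. ZK20.9, with an A box alone, had 1973, with 1315 and 662. F07A11.15, which overlaps an exon, had 1676, with 1183 and 538, and K02F6.11 had 712 and 364 beside its 1072. Replicate 1 was the higher at all 7. Their highest GC content ran from 57.2% at W06H8.17 to 65.7% at K02F6.11. W06H8.17 lay within the gene start window of W06H8.6, while the summits of the other 6 lay in no such window. Of the remaining genes among the 30 of highest signal, C02F5.15 (532), Y111B2A.36 (412), Y23H5B.10 (314), M7.15 (305), W05G11.7 (301) and C17H12.36 (284) had none of the printed arrangements.

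Replicates called overlapping sets of genes. Replicate 1 had a thresholded summit at 69 genes (background 2.88% of windows) and replicate 2 at 77 (background 2.19%), 54 of them in both, 15 in replicate 1 alone and 23 in replicate 2 alone. Of the 73 genes in the conservative list, 52 were in both replicate lists, 5 in that of replicate 1 alone, 7 in that of replicate 2 alone and 9 in neither of them. All 73 had a ranked summit in both replicates. A further 28 genes were in a replicate list but not the conservative one, led by Y67A10A.14 (191 in replicate 1), ZK994.7 (179 in replicate 2) and Y53F4B.47 (159 in replicate 2). C08D8.3 was in both replicate lists, with 39.4 and 155, and C27H5.9 in that of replicate 2, with 137.

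**Figure D5:**
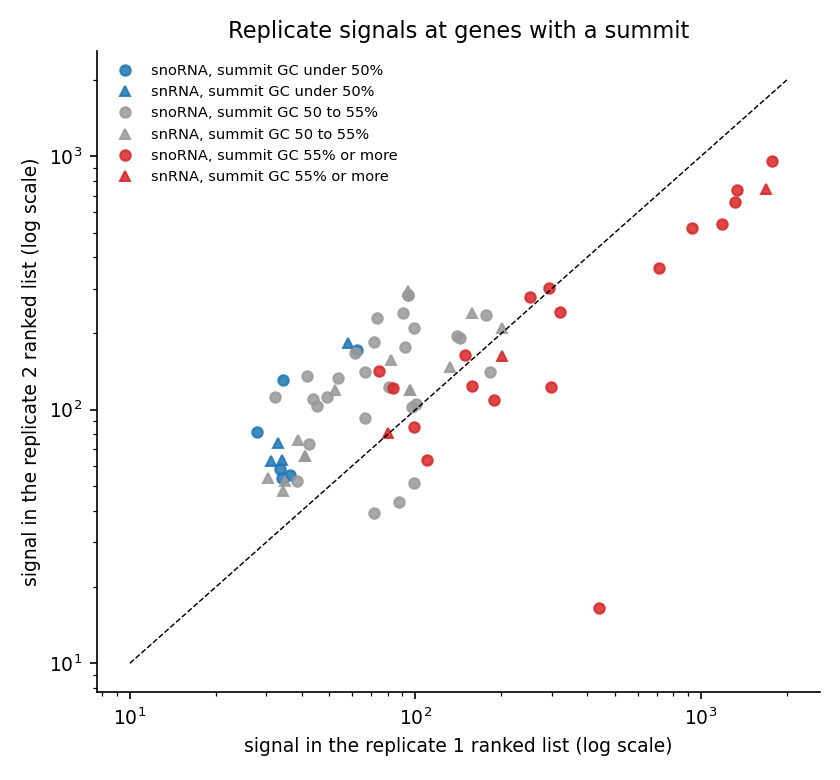
Signal of each of the 73 occupied genes in the ranked lists of replicate 1 (horizontal) and replicate 2 (vertical), both on log scales, by biotype (circle or triangle) and GC content within 100 bp of the conservative summit (colour). The dashed line marks equal deposited values, whose scale is unknown. The 7 genes of highest signal lie below the line, and the 10 genes with a summit GC content under 50% lie above it.

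The balance of the replicates followed GC content, as the plot of replicate signals shows. Signal was higher in replicate 1 at 19 of the 73 genes, and its share of the summed signal had a median of 40% (range 20.8 to 96.4). At the 10 genes with under 50% GC around the summit the median share was 32.0% (range 20.8 to 39.7). At the 42 genes from 50 to 55% it was 37.6% (range 22.4 to 66.9), and at the 21 genes of 55% or more it was 63.4% (range 34.4 to 96.4). At 8 genes the highest summits of the replicates lay over 50 bp apart, among them Y24D9A.10, which gave the 96.4%. Without these 8, chosen after the data were seen, the medians were 26.6% at 7 genes, 38.5% at 38 and 60.2% at 20 (range 34.4 to 70.8). The 7 genes of highest signal had the same order in both replicates. Read depth is unknown, because the lists hold no read counts. The scale of the signal is unknown too, so a higher value in 1 replicate cannot be read as more binding.

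Letters planned for the summits were counted around them and in the whole windows. CGCG lay within 100 bp of 68.6% of the 70 distinct summits at these genes and of 49.2% of all conservative summits, and TATAAA of 12.9% and 3.85%. GAGAGA (22.9% and 24.3%) and CAGCTG (10% and 12%) were about as common in both. In whole windows CGCG was found at 80.8% of occupied and 54.7% of other genes, and TATAAA at 34.2% and 44.0%, so for TATAAA the comparison in windows ran the other way from that around summits. Within the snoRNA genes, box C letters near the 5′ end were found at 20 (5.78%, and at 0 snRNA genes), box D letters near the 3′ end at 81 (23.4%, and at 13 snRNA genes) and ACA at the 3′ end at 58 (16.8%, and at 2 snRNA genes). None of these letters was found at 211 of 346 snoRNA genes, so for most of them the label could not be checked in this way. Genes with any of the letters were occupied at 25 of 135 (18.5%, interval 12.4 to 26.1) and genes with none at 27 of 211 (12.8%, interval 8.6 to 18.1).

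Protein-coding genes for the machinery of these RNAs were counted by a summit in their gene start window, beside 6.99% of all 19973 protein-coding genes. Names that matched no gene name of the annotation were left out, 4 of 11, 2 of 31 and 3 of 24 for the snoRNP, snRNP and transcription lists. Among genes for snoRNP proteins, 1 of 7 had one (14.3%, interval 0.361 to 57.9), ruvb-1, an AAA ATPase of snoRNP assembly, with a signal of 150. Among Sm and U snRNP protein genes it was 6 of 29 (20.7%, interval 7.99 to 39.7). These were uaf-2 (297), a splicing factor subunit, snrp-200 (270), the U5 helicase, snr-4 (239), smn-1 (124), which acts in Sm ring assembly, snr-3 (112) and sftb-1 (87.7), a U2 snRNP protein. Among genes for snRNA transcription and processing it was 4 of 21 (19.0%, interval 5.45 to 41.9). These were snpc-3.4 (208), snpc-3.1 (171) and snpc-3.2 (164), which encode subunits of the complex that binds the proximal element, and ints-4 (206), an Integrator subunit. The interval of the Sm and U snRNP list began just above the background of 6.99%, and those of the other lists included it. No test was made, because the lists were chosen with earlier results of these data known. The snr-4 summit is the one shared with the U4 gene C52E4.8. In the thresholded replicate lists, sftb-1 was in neither, snr-3 in that of replicate 2 alone and smn-1 in that of replicate 1 alone.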

How the data were processed

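ChIP-seq peak lists of 2 biological replicates of 1 group on ce11 (the WBcel235 assembly) were used: thresholded and ranked lists of each replicate, and a conservative and a second pair of lists that pool the libraries. Per the deposited readme, they were made from filtered alignments with a control. The aligner and peak caller are not named in any source used here. The signal of each peak is the value the authors deposited, on an unknown scale. Values are compared within a list, except that those of the 2 replicates at the same gene are also set side by side. Which replicate was the higher there may depend on the scale of each list, which was not tested. The deposited score, as the authors gave it, has a highest value of 1000. Read depth is unknown, so no interval for a signal could be given, and nothing shows how far depth limits the calls.

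Genes came from Ensembl release 115 and sequences from RefSeq. Each gene was extended by 200 bp, and the summit of highest signal in its window was taken from each list. Background windows of 525 bp tiled the 6 nuclear chromosomes. Counts carry exact 95% binomial (Clopper-Pearson) intervals, and no test was made because there is 1 group. Gene lists and genes were chosen with earlier results of these data known. Genes named were the 30 of highest conservative signal, up to 5 called only in a replicate list, 3 on each side of the window edge and hosts, and others were named after their values were seen. Python 3.11.15, numpy 2.4.6, pandas 2.3.3, scipy 1.17.1 and matplotlib 3.10.9 were used, and the counting of summits was tested on simulated data. Alternatives were the other lists, flanks of 0 and 500 bp, overlap of peak intervals and single replicates.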

Additional observations from a re-analysis of the deposited data

How the results depend on the processing

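Most counts kept within 1.5 times their value. With the 2898 conservative peaks of highest signal alone, 48 genes had a summit, among them 11 snRNA and 15 intronic genes. In the ranked list, with no limit on reproducibility, 185 genes had one (139 snoRNA and 46 snRNA, 72 intronic and 71 intergenic), where 13.7% of windows did. Without the 200 bp flank 19 did (9 snoRNA and 10 snRNA, 3 intronic and 11 intergenic), and 22 of the 30 named genes had no summit. The direction of these changes was fixed by construction, while their size was not. Each replicate alone gave 69 to 77 genes, 53 to 57 snoRNA, 16 to 20 snRNA, 24 to 28 intronic, and a median signal of 95.5 to 134. Of genes with at least 50% GC over the whole window, 72.7% (8 of 11) had a summit, and with the highest GC content 34.3% (68 of 198). The cause of the change with GC measure was not tested. The following alternatives were chosen after seeing the data. Each replicate alone gave 47 to 51 genes with the summit upstream, 12 to 16 with the proximal element and 6 to 10 with the A and B box pair. Leaving out summits in coding exons or gene start windows gave 41 genes, 29 with the summit upstream. In the ranked list 102 genes had it upstream, 23 had the proximal element and 11 the pair, and in the second list 10 had the pair. No paired analysis was possible because the 2 replicates form 1 group and nothing was contrasted.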
